A study of Mus musculus with 18 samples.

Results

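The immunity-related GTPases (IRGs) are interferon-inducible GTPases of the mouse, and 6 of their genes were followed here: Irgm1, Irgm2, Igtp, Iigp1, Tgtp1 and Tgtp2. They were chosen by name, as the rows of the gene table whose symbol was one of these 6, among 43309 genes in all, and each symbol was found. Macrophages grown from bone marrow of C57BL/6 mice were compared across 3 genotypes and 2 polarized states, in 6 groups of 3 RNA libraries. The genotypes were wild type (WT), a knockout of progranulin (PGRN, gene Grn) and a knockout of the adaptor protein 14-3-3e (gene Ywhae) named as myeloid. All cultures had 7 days of M-CSF at 10 ng/ml with 10% serum, and then 18 h of either LPS at 100 ng/ml with interferon gamma at 20 ng/ml (the M1 state) or IL-4 at 20 ng/ml (the M2 state). No unstimulated group was analysed here, so each M1 to M2 difference sets an interferon-treated culture against an IL-4-treated one. For the myeloid knockout, neither the Cre driver nor the age of the mice is stated in these sources.

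Interferon gamma acts through its receptor and JAK-STAT signalling to switch on IRG genes, and their proteins gather on the vacuoles in which intracellular pathogens live. The family has regulators and effectors. The regulators Irgm1, Irgm2 and Igtp (also called Irgm3), named GMS proteins after a change in the nucleotide-binding loop, sit on the cell's own membranes and keep the effectors inactive there. The effectors, or GKS proteins, include Iigp1 (Irga6) and Tgtp1 and Tgtp2 (both Irgb6). They load onto pathogen vacuoles together with guanylate-binding proteins and with help from the ATG8 conjugation machinery of autophagy, and the vacuole is then broken open.

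Promoter sequences of the members were searched for sites of the interferon pathways. RefSeq windows of 300 bases (GRCm38.p6, 250 bases before to 50 after the transcription start) were available for 5 of the 6 members, all but Iigp1, and were searched on both strands for an interferon-stimulated response element (ISRE, the letters GAAA and again GAAA with any 2 bases between) and for a gamma-activated site (GAS, TTCNNNGAA). The stretches around the matches are shown 5′ to 3′ on the gene's strand, with the matched bases in capitals, because they show how alike the members are.
Irgm1: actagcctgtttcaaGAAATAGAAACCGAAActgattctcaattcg
Irgm2: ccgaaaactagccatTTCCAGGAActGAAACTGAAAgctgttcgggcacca
Igtp: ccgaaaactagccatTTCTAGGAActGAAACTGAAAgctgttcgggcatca
Tgtp1: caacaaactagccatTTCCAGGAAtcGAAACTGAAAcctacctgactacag
Tgtp2: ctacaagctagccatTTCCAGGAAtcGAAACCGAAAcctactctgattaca
These are chr11:48871420-48871465 (minus strand) for Irgm1, chr11:58214887-58214937 (plus) for Irgm2, chr11:58199496-58199546 (plus) for Igtp, chr11:48992299-48992349 (minus) for Tgtp1 and chr11:49064258-49064308 (minus) for Tgtp2.

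In Irgm2, Igtp, Tgtp1 and Tgtp2 a GAS match was followed after 2 bases by an ISRE match, whereas Irgm1 had 2 ISRE matches that overlap each other and no GAS match in the window. The ISRE matches began 64 bases before the start in Irgm2, 34 in Igtp, 77 in Tgtp1 and 70 in Tgtp2, and 30 and 24 bases before it in Irgm1. Over 32851 promoter windows of the same length, 3.44% held an ISRE match, 8.3% a GAS match and 0.454% both. The Igtp and Irgm2 windows were identical at 73.7% of aligned positions and the Tgtp1 and Tgtp2 windows at 69.3%, against 47.0 to 53.6% for the other pairs of members. Gm12250, the gene of the further effector Irgb10 and listed by GENCODE as a processed pseudogene, had 2 ISRE matches on the opposite strand and a GAS match between them. A match describes the letters of the window and does not show that a factor binds there.

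**Figure D1:**
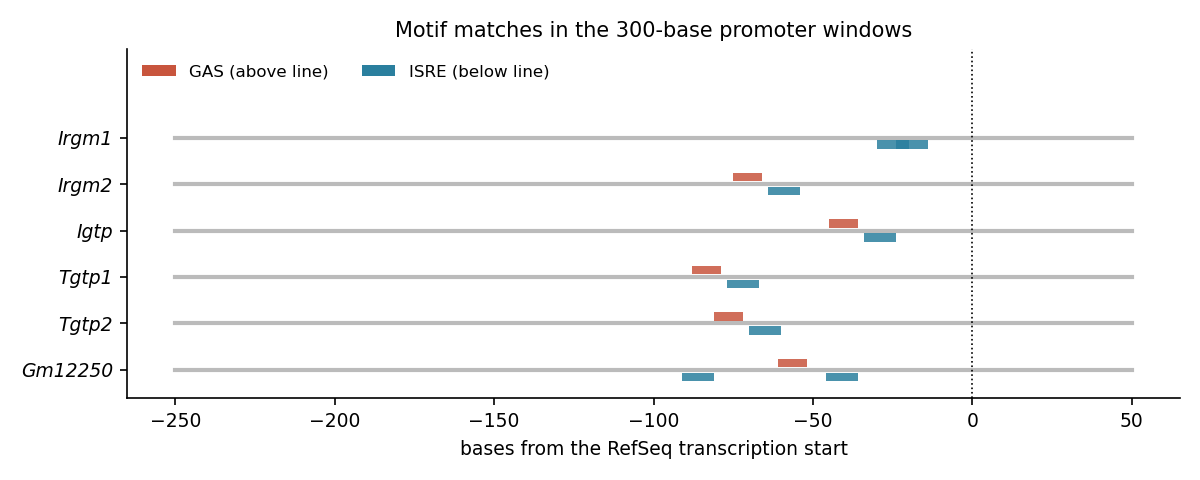
Positions of ISRE matches (blue, below the line) and GAS matches (red, above the line) in the promoter windows of 5 members and Gm12250; the x axis gives bases from the RefSeq transcription start (dotted line). Irgm2, Igtp, Tgtp1 and Tgtp2 each show a GAS match directly before an ISRE match, and Irgm1 shows overlapping ISRE matches alone.

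On the mouse genome GRCm38 with the GENCODE M21 annotation, the members lay on 2 chromosomes. Irgm1 (chr11:48861968-48871683), Tgtp1 (chr11:48985327-48994172) and Tgtp2 (chr11:49057194-49064206) lay on the minus strand of a single stretch of chromosome 11. Igtp (chr11:58199556-58207591) and Irgm2 (chr11:58199618-58222782) lay on the plus strand of the same chromosome, and Iigp1 (chr18:60376027-60392634, plus strand) on chromosome 18. The 5 genes on chromosome 11 were 17.5 to 26.9 Mb from Ywhae, the gene targeted in the 14-3-3e knockout, and 44.2 to 53.6 Mb from Grn. Whether sequence carried along with either knockout bears on their values was not tested.

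Close copies limit how far single members can be told apart. The coding sequences of Tgtp1 and Tgtp2, 1248 bases each, were 99.7% identical, and 89.4% of the 50-base windows of the Tgtp1 transcript also occurred in Tgtp2 transcripts. Of the 50-base windows of Igtp, 12.3% occurred in Irgm2 transcripts, whose annotated model also shares 162 exon bases with Igtp, and 91.4% of Tgtp1 windows, 3.19% of Iigp1 windows and 0.814% of Irgm1 windows occurred in a transcript of some other gene. Tgtp1 also shares 223 exon bases with the predicted gene Gm12185. The split of reads between Tgtp1 and Tgtp2 is therefore uncertain, and their sum is given beside the single genes. No source used here states whether the counting used strand.

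Libraries held 5.16 to 105.3 M reads (median 20.6 M), and a single read was worth up to 4.46 normalized counts. The 6 members took 0.172 to 0.227% of all reads in M1 libraries and 0.00632 to 0.0138% in M2 libraries. The share of reads from genes like ribosomal RNA was 12.4% in WT M2 replicate 3, 1.61% in WT M1 replicate 2 and 0.114% or less elsewhere, and changes of a call without these 2 rRNA-rich libraries are given beside it. Mean Grn fell from 88266 normalized counts in WT M1 to 313 in PGRN knockout M1 and from 31336 to 26.9 in M2, and mean Ywhae from 9305 in WT M1 to 5647 in 14-3-3e knockout M1 and from 8739 to 4860 in M2. Grn was thus 303-fold and 1132-fold lower, whereas Ywhae was only 1.65-fold and 1.80-fold lower, so more of it remained than the label alone would tell, and "14-3-3e knockout" below names the libraries by their label. Of 12 macrophage markers, 11 were in the table and none was at 0 in every library of a group, and all 8 M1 markers rose and all 8 M2 markers fell from M2 to M1 in each genotype. Markers of stromal cells (13 genes) were read in every group: their summed level was 17617 to 30443 CPM (counts per M reads) in WT M1, 13929 to 15960 in PGRN knockout M1 and 32453 to 39840 in 14-3-3e knockout M1, with 19920 to 32475, 14933 to 18492 and 33349 to 40898 in the M2 groups. Summed macrophage markers were at 14198 to 20900, 19939 to 22430 and 8317 to 12653 CPM in the M1 groups and 8558 to 9097, 15211 to 16315 and 5617 to 6636 in the M2 groups, with the genotypes always given as WT, PGRN knockout and 14-3-3e knockout. Single macrophage markers went both ways: against WT, 5 rose (among them Mertk and Cd68) and 2 fell (Cd14 and C1qa) in PGRN knockout M1, and 4 rose and 2 fell (C1qa and C1qb) in M2, while 1 rose (Cd14) and 5 fell in 14-3-3e knockout M1 and 2 fell in M2. Summed markers of B and plasma cells were at 111 to 198 CPM in WT M1 and 34.5 to 81.1 in PGRN knockout M1. Those of neutrophils were at 148 to 336 and 53.3 to 124 CPM in the same groups. Dendritic cell markers were at 3.78 to 5.23 CPM in WT M1 and at least 8.20 in each 14-3-3e knockout M1 library. In M2 they were at 3.35 to 5.07 in WT and 6.21 to 8.06 in the 14-3-3e knockout. Libraries overlapped in none of these cases. Over the 11 macrophage markers, the median log2 fold change of the 14-3-3e knockout against WT was -0.40 in M1 and -0.10 in M2. The lowest were -1.82 and -2.24. A summed level can be moved by a few abundant genes and does not measure the number of macrophages. In bulk RNA of this kind fewer macrophages, less RNA per macrophage and regulation of single marker genes cannot be told apart. The part of these markers in the genotype differences below was not tested.

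Every member rose in M1 macrophages of every genotype, from 12.1-fold (Irgm1 in the 14-3-3e knockout) to 99.5-fold (Tgtp2 in the PGRN knockout), leaving aside Tgtp1, whose fold is poorly fixed. At an adjusted p under 0.05 and on the scale of log2(normalized count + 1), 6 of 6 members rose in WT, where 18.9% of the 21336 genes tested did so. The same count was 6 of 6 in the PGRN knockout (background 18.0%) and 6 of 6 in the 14-3-3e knockout (background 15.6%). The lowest M1 library stood above the highest M2 library for all 6 members in each genotype, while groups of this kind did not overlap, in either direction, for 40.2% of genes in WT, 51.3% in the PGRN knockout and 49.3% in the 14-3-3e knockout. The median log2 fold change of the members was 5.19 in WT, 5.58 in the PGRN knockout and 4.98 in the 14-3-3e knockout, against -0.04, -0.04 and 0.03 over all genes tested.

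Among the regulators, Irgm1 had the smallest fold and the highest level in M2. Its WT libraries read 10653, 11614 and 10948 normalized counts in M1 and 813, 834 and 708 in M2. Irgm1 rose by 3.82 ± 0.09 (log2 fold change ± SE) in WT, by 3.98 ± 0.09 in the PGRN knockout and by 3.60 ± 0.09 in the 14-3-3e knockout. The M1 and M2 libraries were far apart in each genotype, and the largest adjusted p of the 3 was 9.48e-15. Irgm2 went from 265, 233 and 190 normalized counts in WT M2 to 5195, 5713 and 5245 in WT M1, a rise of 4.56 ± 0.14, with 4.18 ± 0.14 in the PGRN knockout and 4.04 ± 0.14 in the 14-3-3e knockout. Igtp went from 196, 183 and 196 normalized counts in WT M2 to 9404, 7152 and 6257 in WT M1. Its rise was 5.28 ± 0.15 in WT, 4.89 ± 0.15 in the PGRN knockout and 4.80 ± 0.15 in the 14-3-3e knockout. The M1 to M2 distance of these regulators was thus larger for Igtp than for Irgm2 and for Irgm2 than for Irgm1 in each genotype.

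The effectors covered a wider range. Iigp1 read 87.8, 62.9 and 46.4 normalized counts in WT M2 and 5547, 5978 and 5126 in WT M1. It rose by 6.42 ± 0.42 in WT, 6.27 ± 0.42 in the PGRN knockout and 5.98 ± 0.42 in the 14-3-3e knockout, where leaving out M2 replicate 1 gave 6.59. Tgtp2 read 419, 371 and 195 normalized counts in WT M2 and 12013, 10113 and 10091 in WT M1. Its rise was 5.10 ± 0.27 in WT and 5.16 ± 0.27 in the 14-3-3e knockout, and 6.64 ± 0.27 in the PGRN knockout, where the M2 level was low. Tgtp1 had the widest spread: WT M2 replicate 1 had 0 reads of Tgtp1 beside 315 of Tgtp2, and 0 reads allow up to 3.99 normalized counts (3 reads, counting error only), while replicates 2 and 3 read 21.2 and 86.6 normalized counts. WT M1 libraries read 1476, 2359 and 1052. The fitted Tgtp1 rise was 6.95 ± 1.18 in WT, 6.27 ± 1.18 in the PGRN knockout and 5.91 ± 1.18 in the 14-3-3e knockout, and in WT it was 5.13 without M2 replicate 1 (adjusted p = 3.39e-05) and 8.36 without M2 replicate 3, the rRNA-rich library (adjusted p = 2.64e-05). Summed over both Tgtp genes, the rise was 5.10 ± 0.22 in WT, 6.59 ± 0.22 in the PGRN knockout and 5.22 ± 0.22 in the 14-3-3e knockout.

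**Figure D2:**
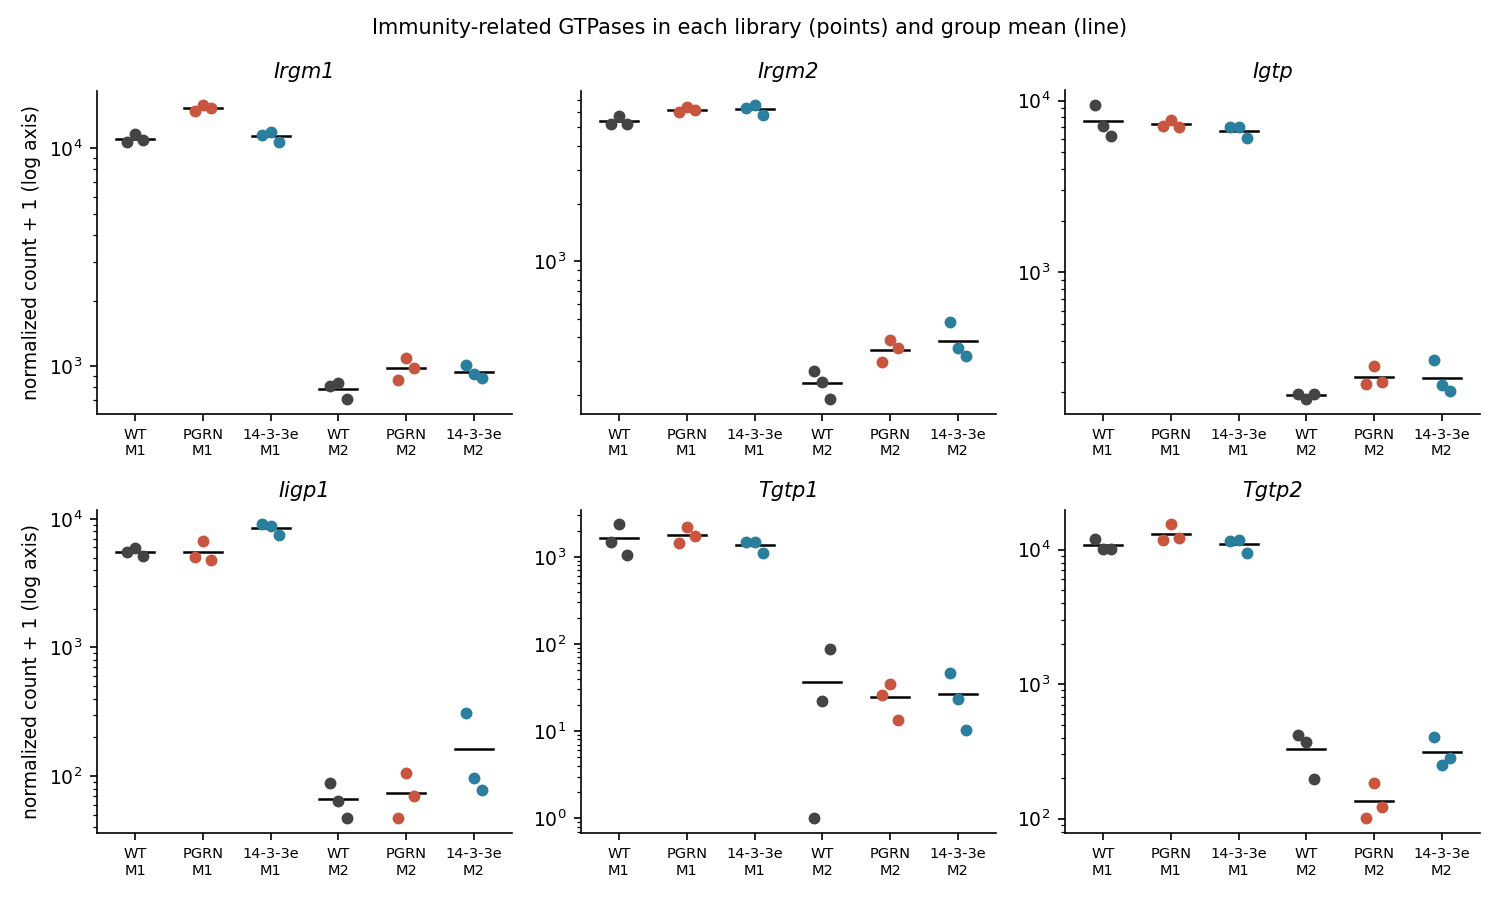
Normalized count plus 1 (log axis) of each of the 6 members in each of the 18 libraries; points are libraries, lines are means of 3 libraries, and groups are named by genotype and polarized state. All M1 libraries sit far above all M2 libraries; in M2 the Tgtp2 points of the PGRN knockout (99.8 to 182) lie below those of WT (195 to 419), and WT M2 replicate 1 has 0 Tgtp1 reads.

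Levels per kilobase were divided by all annotated exon bases of a gene, which were 5810 for Irgm1 and 5823 for Iigp1. Their longest coding transcripts have only 2259 and 3121 bases, so their places in the orders below depend on the length used. Per kilobase of exon, Igtp and Tgtp2 led in WT M1, at 3761 ± 802 and 3655 ± 375 normalized counts per kb (mean ± SD, n = 3), and their libraries overlapped. Irgm1 followed at 1906 ± 84.8, Irgm2 at 1459 ± 77.3, Iigp1 at 953 ± 73.2 and Tgtp1 at 508 ± 208, and the libraries of each of these neighbours did not overlap. In WT M2 the order was Irgm1 at 135 ± 11.6 normalized counts per kb, Tgtp2 at 112 ± 40.2, Igtp at 94.6 ± 3.73, Irgm2 at 62.1 ± 10.2, Iigp1 at 11.3 ± 3.58 and Tgtp1 at 11.2 ± 14.1. Tgtp2 overlapped Irgm1, Igtp and Irgm2 there, and Iigp1 overlapped Tgtp1. In the PGRN knockout in M2, Tgtp2 stood lower in that order, at 45.8 ± 14.6 normalized counts per kb, below Irgm1 (168 ± 18.9), Igtp (122 ± 17.1) and Irgm2 (93.0 ± 12.1), and its libraries overlapped none of those of these regulators. In the 14-3-3e knockout in M1, Iigp1 stood at 1449 ± 144 normalized counts per kb and its libraries lay below those of Irgm1 (1961 ± 105) and Irgm2 (1692 ± 97.2).

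In M1 macrophages of the PGRN knockout, Irgm1 was the member that rose. It read 14874, 15767 and 15382 normalized counts in the PGRN knockout against 10653, 11614 and 10948 in WT, and the groups did not overlap. Its log2 fold change was 0.47 ± 0.09 (adjusted p = 0.000891), or 1.39-fold, and it passed the threshold in 29 of 29 alternative settings. Thus 1 of 6 members rose, while 14.2% of all genes did so, and the count alone is no result about the members. Irgm2 was also above WT in every library, at 6027, 6385 and 6183 against 5195, 5713 and 5245 normalized counts, with a log2 fold change of 0.20 ± 0.14 (adjusted p = 0.318). Libraries of the 2 groups did not overlap for 2 of 6 members, Irgm1 and Irgm2, and for 31.8% of all genes. The other log2 fold changes were -0.04 ± 0.15 for Igtp, -0.02 ± 0.42 for Iigp1, 0.20 ± 1.18 for Tgtp1, 0.29 ± 0.27 for Tgtp2 and 0.27 ± 0.22 for both Tgtp genes together, with adjusted p from 0.424 to 0.997.

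In M2 macrophages of the PGRN knockout, the regulators Irgm1 and Irgm2 rose and the effector Tgtp2 fell. Irgm2 read 296, 384 and 349 normalized counts in the PGRN knockout against 265, 233 and 190 in WT, a log2 fold change of 0.59 ± 0.14 (adjusted p = 0.00663), and passed in 29 of 29 alternatives. Irgm1 read 869, 1088 and 976 against 813, 834 and 708 normalized counts, a log2 fold change of 0.31 ± 0.09 (adjusted p = 0.0179). Both groups of values were close but did not overlap for either gene. The Irgm1 call was lost in 6 of 29 alternatives: its adjusted p was 0.0891 without WT replicate 3, 0.0946 without PGRN knockout replicate 2, 0.0567 without PGRN knockout replicate 3, 0.0727 without the 2 rRNA-rich libraries, 0.0574 with only these 2 groups in the fit and 0.153 with scaling by library totals. Rises were thus called for 2 of 6 members, against 11.1% of all genes.

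Tgtp2 read 99.8, 182 and 121 normalized counts (147, 541 and 79 reads) in the PGRN knockout in M2 against 419, 371 and 195 (315, 613 and 189 reads) in WT. The groups did not overlap, though PGRN knockout replicate 2 came close to WT replicate 3. The log2 fold change was -1.25 ± 0.27 (adjusted p = 0.00417), or 2.38-fold lower, and it passed in 28 of 28 alternatives. With both Tgtp genes summed, the libraries read 125, 217 and 133 against 419, 392 and 281 normalized counts, and the log2 fold change was -1.22 ± 0.22 (adjusted p = 0.00111). A fall was called for 1 of 6 members and 8.3% of all genes. Igtp was above WT in every library, at 223, 286 and 228 against 196, 183 and 196 normalized counts, with a log2 fold change of 0.35 ± 0.15 that did not pass (adjusted p = 0.12; 0.0472 with reads thinned to equal depth). Libraries did not overlap for 4 of 6 members (Irgm1, Irgm2, Igtp and Tgtp2) and for 39.1% of all genes. Iigp1 differed by 0.13 ± 0.42 (adjusted p = 0.885), and by -0.09 without WT replicate 3. Tgtp1 differed by 0.88 ± 1.18 (adjusted p = 0.679), by -0.94 without WT replicate 1, the library with 0 Tgtp1 reads, and by 2.29 without WT replicate 3, the rRNA-rich library.

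**Figure D3:**
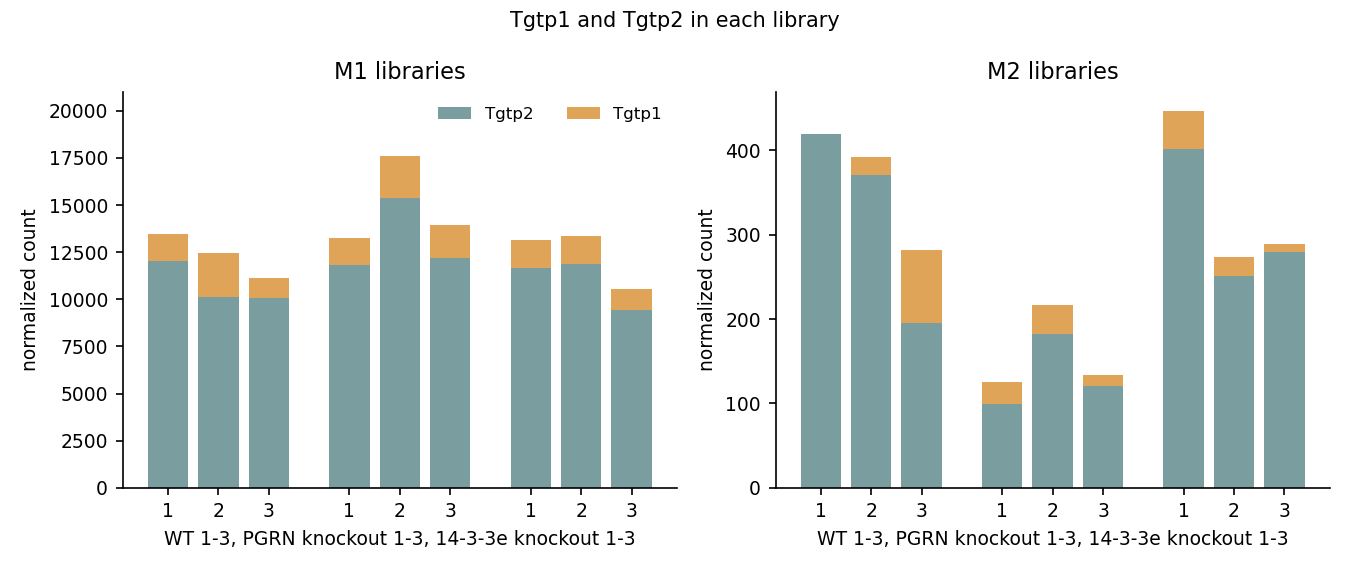
Normalized counts of Tgtp2 (grey-green) and Tgtp1 (orange) stacked for each library, with M1 libraries on the left and M2 libraries on the right on separate linear axes. In M2 the summed bars of the PGRN knockout (125 to 217) lie below those of WT (281 to 419) and of the 14-3-3e knockout (273 to 447), and the Tgtp1 part runs from 0 to 30.8% of the pair's reads.

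Because the test of a difference between states is separate from the tests within them, the effect of the PGRN knockout in M1 was set against that in M2. None of the 6 members passed, where 1.25% of all genes did by limma, and 1 of 6, Tgtp2, had an unadjusted p under 0.05, as had 13.4% of all genes. The Tgtp2 effect was 1.54 ± 0.38 higher in M1 than in M2 (adjusted p = 0.0666). It passed in 4 of 28 alternatives, without WT M2 replicate 3 (adjusted p = 0.0108), without PGRN knockout M2 replicate 2 (0.0420), without the 2 rRNA-rich libraries (0.0219) and with genes of at least 5 CPM only (0.0418), and over the alternatives its adjusted p ran from 0.0108 to 0.157. For the summed Tgtp genes the difference was 1.49 ± 0.31 (adjusted p = 0.0295). For the other members the difference lay between -0.68 ± 1.67 (Tgtp1) and 0.16 ± 0.12 (Irgm1), and that of Tgtp1 was 1.14 without WT M2 replicate 1 and -2.08 without WT M2 replicate 3.

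In the 14-3-3e knockout in M1 no member passed the threshold, where limma called 21.3% of all genes, and 0 of 6 had an unadjusted p under 0.05, where 34.9% of all genes had. Iigp1 had the largest log2 fold change, at 9038, 8796 and 7480 normalized counts against 5547, 5978 and 5126 in WT. These groups did not overlap, and the log2 fold change was 0.60 ± 0.42 (adjusted p = 0.342, and 0.0452 with only these 2 groups in the fit). The standard error of Iigp1 came from all 6 groups, including the 14-3-3e knockout in M2, where replicate 1 read 307 and replicates 2 and 3 read 96.5 and 77.1. Libraries did not overlap for 2 of 6 members, Iigp1 and Irgm2, and for 32.8% of all genes. Irgm2 read 6342, 6540 and 5844 normalized counts against 5195, 5713 and 5245 in WT, with a log2 fold change of 0.21 ± 0.14 (adjusted p = 0.299). The others were 0.04 ± 0.09 for Irgm1, -0.17 ± 0.15 for Igtp, -0.19 ± 1.18 for Tgtp1 and 0.03 ± 0.27 for Tgtp2.

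In the 14-3-3e knockout in M2, Irgm2 rose. It read 481, 352 and 318 normalized counts against 265, 233 and 190 in WT, and the groups did not overlap. Its log2 fold change was 0.73 ± 0.14 (adjusted p = 0.00523), or 1.66-fold, and it passed in 29 of 29 alternatives, so that 1 of 6 members rose against 3.32% of all genes. Irgm1 (1009, 923 and 883 against 813, 834 and 708 normalized counts) and Igtp (306, 220 and 203 against 196, 183 and 196) were also above WT in every library. Their log2 fold changes were 0.26 ± 0.09 (adjusted p = 0.0878) and 0.32 ± 0.15 (adjusted p = 0.213). Irgm1 passed with reads thinned to equal depth (adjusted p = 0.0497) and without WT M1 replicate 1, which enters through the shared estimate of spread (0.0492). Libraries did not overlap for 3 of 6 members, the regulators, and for 31.6% of all genes. Iigp1 differed by 1.04 ± 0.42 (adjusted p = 0.157), with replicate 1 at 307 normalized counts above all WT libraries and replicates 2 and 3 at 96.5 and 77.1 against 87.8, 62.9 and 46.4, and the difference was 0.44 without replicate 1. Tgtp2 differed by -0.03 ± 0.27 (adjusted p = 0.969) and Tgtp1 by 0.84 ± 1.18, by -0.98 without WT replicate 1 and by 2.25 without WT replicate 3.

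The effect of the 14-3-3e knockout did not pass a test of difference between M1 and M2 for any member (0 of 6, by limma, against 0.286% of all genes), and 2 of 6 had an unadjusted p under 0.05, as had 10.4% of all genes. These were Irgm2, whose effect was -0.52 ± 0.20 (M1 minus M2, adjusted p = 0.355), and Igtp, at -0.49 ± 0.21 (adjusted p = 0.44).

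**Figure D4:**
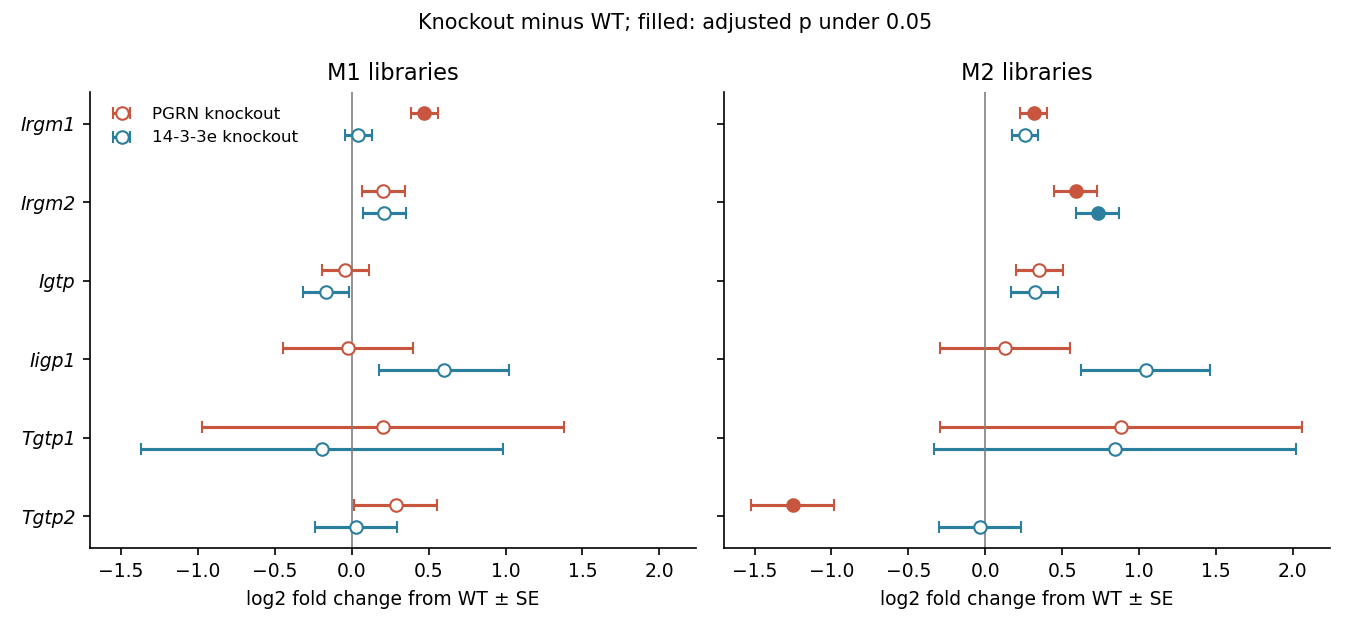
Log2 fold change from WT (x axis, ± SE from the fit of 3 libraries per group) of the 6 members in the PGRN knockout (red) and the 14-3-3e knockout (blue), with M1 libraries on the left and M2 libraries on the right; filled points passed an adjusted p of 0.05. Filled points are Irgm1 in the PGRN knockout in both states, Irgm2 in both knockouts in M2, and Tgtp2 in the PGRN knockout in M2 at -1.25.

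Both knockouts were compared with the same WT libraries, so their values for a gene are not independent. Set directly against each other, they differed for Irgm1 in M1, where the 14-3-3e knockout (11551, 11913 and 10722 normalized counts) was below the PGRN knockout (14874, 15767 and 15382). The log2 fold change was -0.43 ± 0.09 (adjusted p = 0.00144), and -0.25 (adjusted p = 0.148) with scaling by library totals. This was 1 fall among 6 members, against 12.5% of all genes. Iigp1 was higher in every 14-3-3e library in M1, by 0.63 ± 0.42 (adjusted p = 0.341; 0.0130 with only these 2 groups in the fit and 0.0434 with precision weights on recovered reads). Libraries did not overlap for these 2 of 6 members and for 43.3% of all genes. In M2, Tgtp2 was higher in the 14-3-3e knockout (402, 251 and 280 normalized counts) than in the PGRN knockout (99.8, 182 and 121), by 1.22 ± 0.27 (adjusted p = 0.00446), and by 1.09 ± 0.22 (adjusted p = 0.00216) for the summed Tgtp genes. It was the 1 member of 6 that rose, against 8.29% of all genes, and the 1 member without overlap, against 39.5% of all genes. Irgm2, which rose against WT in M2 in each knockout, differed by 0.15 ± 0.14 between them (adjusted p = 0.592).

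Of 17 further IRG names, 12 were tested. From M2 to M1, 8 of 12 rose and 1 fell in WT (18.9% and 20.0% of all genes), 9 rose and 2 fell in the PGRN knockout (18.0% and 19.5%), and 9 rose and 1 fell in the 14-3-3e knockout (15.6% and 14.4%), with a median log2 fold change in WT of 3.67. The largest fitted rise in WT was that of Gm4841 on chromosome 18, at 6.85. Gm12250 (Irgb10) rose by 5.05, Gm12185 by 5.29, Gm4951 by 4.23, Gm5431 by 3.83, Gm5970 by 5.62, F830016B08Rik by 3.52 and 9930111J21Rik2 by 1.43. In the WT M2 libraries Gm4841 had 2, 2 and 0 reads and Gm5970 had 0, 1 and 0. The sizes of their folds therefore depend on the count of 1 added before the log. Irgc1, which is known from testis, fell from 4.12 to 1.02 normalized counts, at the edge of detection, while 9930111J21Rik1 (0.20), Gm12187 (1.48) and Irgq (-0.13) did not pass.

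In the PGRN knockout 4 of these 12 rose in M1 (14.2% of all genes) and 5 in M2 (11.1%), and none fell by limma. In M1 these were 9930111J21Rik1, with a log2 fold change of 2.22 (adjusted p = 0.000893), 9930111J21Rik2 at 1.37 (0.000282), Gm5431 at 0.996 (0.000298) and Gm12250 at 0.51 (0.00502). In M2 the same 4 genes were at 1.54, 1.51, 1.07 and 0.70, and Irgq rose by 0.42. Gm5431 and the 9930111J21Rik genes lie between Irgm1 and Tgtp2 on chromosome 11, and Tgtp2 fell in M2. Gm12185 (-0.12 in M1 and 0.39 in M2) and Tgtp1 lie there too and passed in neither state. In the 14-3-3e knockout 2 of 12 rose in M1 (2554 of all 21336 genes rose) and 4 in M2 (3.32% rose). The 9930111J21Rik genes rose in M1 (1.29 and 0.81), and 9930111J21Rik2 (1.13), Gm12250 (0.56), Gm5431 (0.74) and Gm5970 (2.30) rose in M2. Gm5970 was at the edge of detection in M2, with 19, 2 and 4 reads against 0, 1 and 0 in WT. Libraries of 9930111J21Rik1 overlapped in M1, at 182 to 395 normalized counts against 53.5 to 198 in WT. How far the 9930111J21Rik genes share reads was not checked.

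The guanylate-binding proteins, GTPases that join the IRGs on vacuoles, rose in M1 in each genotype for 9 of 9 genes tested (18.9% of all genes in WT), with a median of 5.61 in WT. Examples in WT were Gbp5 (6.83), Gbp3 (6.15), Gbp2 (5.22) and Gbp9 (5.04). In the PGRN knockout 6 of 9 rose in M1 and 4 of 9 in M2 (14.2% and 11.1% of all genes), among them Gbp9 (1.10 in M1 and 2.01 in M2) and Gbp8 (1.64 and 1.98), while Gbp2 rose in M1 (0.89) and was at 0.01 in M2. Counts for the 14-3-3e knockout were 2 of 9 in M1 and 3 of 9 in M2, all rises (2554 of all 21336 genes rose in M1, and 3.32% in M2).

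Of 24 genes of interferon receptors and JAK-STAT signalling, 16 rose and 2 fell from M2 to M1 in WT (18.9% and 20.0% of all genes). Their median was 0.77. Stat2 rose by 3.64, its DNA-binding partner Irf9 by 2.17 and the feedback inhibitor Socs3 by 2.43. In the PGRN knockout 10 of 24 rose and 1 fell in M1 (14.2% and 11.1% of all genes), and 11 rose and 2 fell in M2 (11.1% and 8.3%). Irf8 rose there by 0.82 in M1 and 0.72 in M2, whereas Socs3 was at -0.17 in M1 and fell by 0.88 in M2. In the libraries labelled 14-3-3e knockout 5 rose and 3 fell in M1 (2554 and 1987 of all 21336 genes). In M2, 5 rose and 1 fell (3.32% and 3.37%).

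The machinery that helps place IRGs on vacuoles is given by the same counts, to be read against the same shares of all genes. In WT, 18.9% were higher and 20.0% lower in M1 than in M2. For the PGRN knockout against WT, 14.2% were higher and 11.1% lower in M1, and 11.1% and 8.3% in M2. For the 14-3-3e knockout, 2554 of all 21336 genes were higher and 1987 lower in M1, and 3.32% and 3.37% in M2. Of 16 genes of ATG8 conjugation and autophagy initiation, 9 rose and 2 fell from M2 to M1 in WT, with a median of 0.28: Gabarap, an ATG8 protein, rose by 0.54 and Atg16l1 by 0.32, while Gabarapl1 fell by 0.57 and Atg7 by 0.49. In the PGRN knockout 7 rose and 1 fell in M1 and 5 rose and 1 fell in M2, with Gabarapl1 at 0.70 and 0.88, Atg7 at 0.57 and 0.37 and Map1lc3a at -0.87 and -0.63. For the 14-3-3e label, 2 rose and 3 fell in M1, and in M2 limma called 0 of 16, with a median of -0.14. In M2, 8 had an unadjusted p under 0.05 by limma. The share of all genes at that unadjusted cut was not computed, so this count cannot be judged. Of 13 ubiquitin ligases and adaptors of targeted vacuoles, 7 rose and 1 fell in WT M1, with Rnf213 at 3.70, Trim21 at 2.65 and Lgals3 at -2.12. In the PGRN knockout 9 of 13 rose in M1, and 10 rose and 1 fell in M2, among them the adaptors Sqstm1 (1.04 and 0.26) and Tax1bp1 (0.58 and 0.44). For the 14-3-3e label, 1 rose and 3 fell in M1 and 3 fell in M2.

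**Figure D5:**
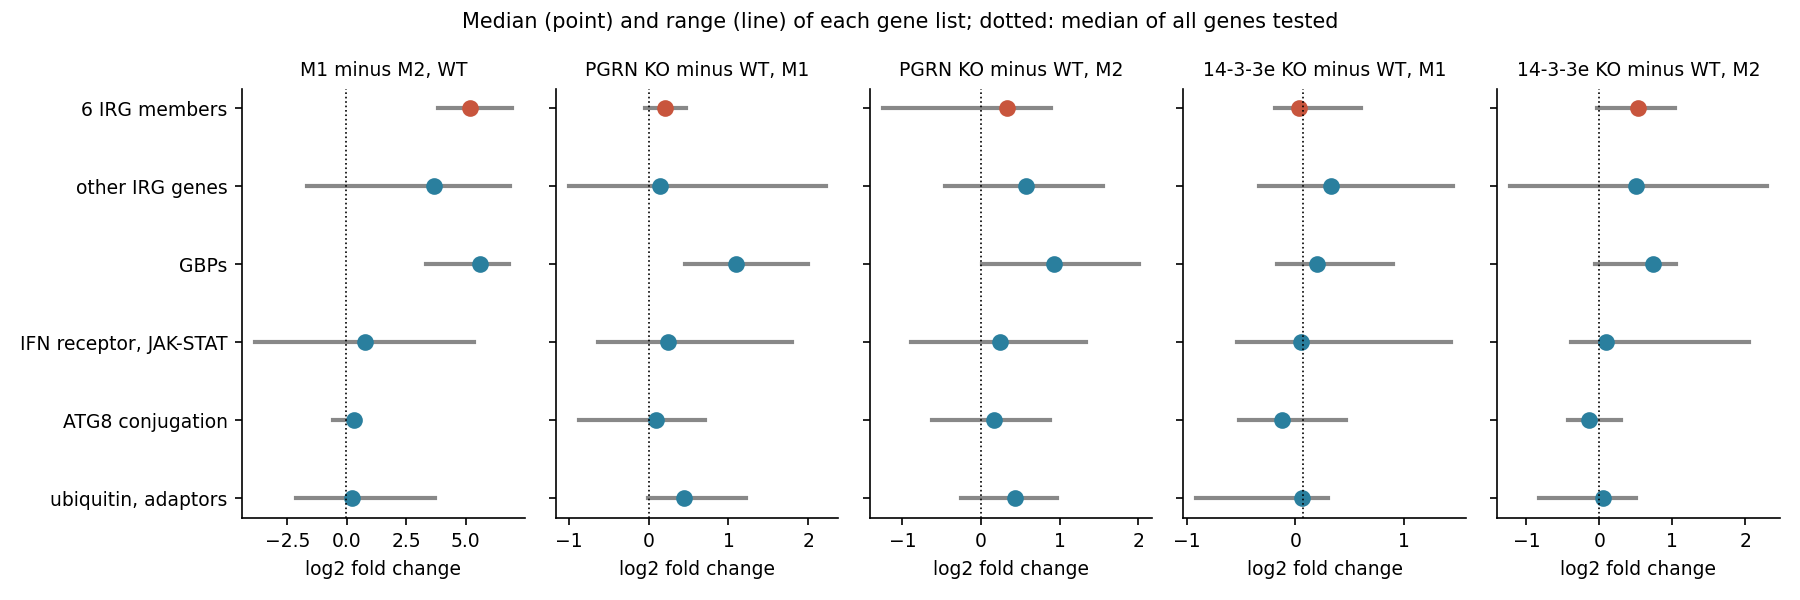
Log2 fold changes of the 6 members and 5 gene lists in 5 comparisons: points are medians, lines run from the lowest to the highest gene, and the dotted line is the median of all genes tested. The members and the guanylate-binding proteins have the highest medians of M1 minus M2 in WT (5.19 and 5.61), and in the PGRN knockout in M1 the median of the guanylate-binding proteins (1.10) is above that of the members (0.20).

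The genes whose pattern was most like the members' mean log2 level over all 18 libraries were Ifit1 (Pearson r = 0.997), Ifi205 (0.996), Irf7 (0.996), Ifi47 (0.995) and Slfn1 (0.995), out of 10303 compared. Ifi47 encodes an IRG itself (Irgd) and lies near Tgtp2. It rose by 4.93 ± 0.18 from M2 to M1 in WT, and its log2 fold change in the PGRN knockout was 0.02 ± 0.18 in M1 and 0.04 ± 0.18 in M2. Over all 18 libraries such values mostly reflect the distance between M1 and M2 groups. Over the 9 M1 libraries the nearest genes were Zfp111 (0.924), Nck1 (0.878), Ugp2 (0.871), Slco3a1 (0.856) and Xrcc2 (0.854). These were the highest of 10302 genes over few libraries, and how high r would run among unlinked genes was not tested.

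Within a polarized state the members did not all vary together. Over the 9 M2 libraries Irgm1 and Irgm2 had a Pearson r of 0.912, Irgm1 and Igtp of 0.816 and Irgm2 and Igtp of 0.855, whereas Tgtp2 had r of -0.12 with Irgm1, 0.02 with Irgm2 and -0.10 with Igtp. Iigp1 stood between, at 0.618 with Irgm1, 0.793 with Irgm2 and 0.543 with Tgtp2. Over the 9 M1 libraries the regulators were less alike, at 0.567 for Irgm1 with Irgm2 and 0.09 for Irgm1 with Igtp, and Irgm1 and Tgtp2 were at 0.715. These are descriptions over libraries of 3 genotypes and unequal depth, and Igtp and Irgm2 share some sequence.

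No source used here says that the libraries came from separate mice or cultures, so each p-value speaks of the spread among these libraries, which may be technical. Scaling by library totals moved the median of all genes to -0.19 in the WT comparison of M1 with M2 and to 0.19 in M1 between the knockouts, and lowered the share of calls that were higher from 48.5 to 34.2% and raised it from 50.1 to 73.2% in these comparisons. The share went from 48.1 to 30.0% and from 52.0 to 29.8% for M1 with M2 in the PGRN and 14-3-3e knockouts, from 56.3 to 39.4% and from 57.2 to 47.2% for the PGRN knockout against WT in M1 and M2, from 56.2 to 70.9% and from 49.7 to 79.1% for the 14-3-3e knockout against WT, from 45.5 to 70.2% in M2 between the knockouts, and from 49.2 to 27.0% for the 14-3-3e effect in M1 minus M2. All members still rose in M1 under that scaling, and the calls of Irgm2 and Tgtp2 in M2 were kept.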

How the data were processed

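Per the submitters' processing notes, reads were handled with STAR, RSEM 1.3.1 and DESeq2. These notes name GRCh38, while the gene IDs are mouse IDs. The authors deposited log2 of a normalized count plus 1, for each gene and library. Undoing the log and dividing by the worth of 1 read gave whole reads for 100% of genes in each library (within 0.1 of a read), and so the depth. A filter (normalized count 1 or more in 3 or more libraries) left 21336 genes, which were tested with limma 3.58.1 (trend, robust) in R 4.3.3, in one fit of 6 groups and 11 comparisons on log2(normalized count + 1), with Benjamini-Hochberg adjustment over all genes and a threshold of 0.05. The fit was tested on simulated data. Precision weights on the recovered reads, thinning, scaling, filters, pseudocounts and left-out libraries were alternatives. Named are the members, Grn, Ywhae, every tested gene of the IRG list, up to 4 and 3 genes of each other list by smallest p in WT and against WT, and the 5 genes most like the members over all libraries and over M1 libraries. Of these, 2 genes are not reported here. Members and lists were chosen with earlier results of these data known. Positions are from GENCODE M21, which held 42425 of the 43309 gene IDs, and promoters from RefSeq.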

Additional observations from a re-analysis of the deposited data

How the results depend on the processing

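All 6 members rose in M1 in each genotype under every alternative run. In M1, the count of members called for the 14-3-3e knockout against WT (0) became 1, Iigp1, with only these groups in the fit, and the count between the knockouts (1) became 2 with only these groups in the fit, 2 with precision weights and 0 with library totals. For the 14-3-3e knockout against WT in M2 the count (1) became 2 with thinned reads, and 1 to 2 with a library left out. For the PGRN knockout's effect in M1 minus M2 the count (0) became 1 with at least 5 CPM, 1 without the 2 rRNA-rich libraries, 1 with Tgtp1 and Tgtp2 summed, and 0 to 1 with a library left out. The cause of these changes was not tested. Of single fold changes, no call changed sign. Whether replicate numbers pair the samples was not settled. Over 45 pairs of same-numbered libraries the correlation of deviations ran from -0.35 to 0.53 (median -0.03), with 10 over 0.1. Libraries with different numbers were not compared in this way, so these values cannot decide it. With the replicate number as a replicate block no member's call changed, 3 members were past the threshold for the PGRN knockout in M2, and Irgm1 there had an adjusted p of 0.0124. Few reads were assigned to Tgtp1 in some M2 libraries: 0 in WT replicate 1, beside 315 of Tgtp2, and 8 in PGRN knockout replicate 3, beside 79. The part of depth and of the uncertain split of reads between the copies in this was not tested.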

Other observations

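The balance of regulators and effectors, summed per kilobase of exon, was looked at after the values were seen and was not tested. The ratios depend on the gene lengths used, which for Irgm1 and Iigp1 are far above those of their longest coding transcripts. In M1 libraries the summed level of Irgm1, Irgm2 and Igtp was 1.16 to 1.45 times that of Iigp1, Tgtp1 and Tgtp2 in all 9 libraries. In M2 the ratio was 1.96, 2.07 and 2.67 in WT, 6.84, 4.76 and 6.60 in the PGRN knockout and 2.24, 3.33 and 3.04 in the 14-3-3e knockout. The PGRN knockout libraries in M2 thus lay above all others. Their regulators were at 340, 433 and 376 normalized counts per kb against 308, 297 and 270 in WT. Their effectors were at 49.7, 90.9 and 56.9 against 158, 144 and 101.3. The lower effector sum was mainly that of Tgtp2, with means of 45.8 normalized counts per kb against 112 in WT. Iigp1 was at 12.6 against 11.3 and Tgtp1 at 7.43 against 11.2.

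Tgtp1 made up 9.44 to 18.9% of the reads of the Tgtp pair in M1 libraries and 0 to 30.8% in M2 libraries, where WT replicate 1 had 0 reads of Tgtp1 and PGRN knockout replicate 3 had 8.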
